A study of Mus musculus with 4 samples.

Results

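Inflammatory monocytes marked by Ly6i and Cxcl9 were examined by single-cell RNA-seq of the nasal mucosa, from which CD45+ cells (CD45 marks leukocytes) had been isolated, in female C57BL/6 mice aged 8 weeks. The members were selected on their UMIs (unique molecular identifiers, each standing for 1 captured transcript) in cells with at least 500 UMIs, at least 200 genes and under 10% mitochondrial UMIs. A cell was taken when it held at least 2 UMIs of Ly6i, at least 2 of Ms4a4c, Ms4a6c and Plac8 together, under 2 of C1qa, C1qb and C1qc together, under 2 of Cd209a, under 3 of Vcan and F13a1 together, under 2 of Ace and Adgre4 together, and none of Cd3e, Cd79a, Cxcr2, Siglech or Ncr1. This gave 693 gated cells of 72320 cells kept (0.958%) and of 79132 barcodes deposited. The mice were of this 1 strain and differed in treatment. The 4 libraries, 1 for each treatment, are named Vehicle, Vehicle-OVA, Ribavirin or Ribavirin-OVA, and values are given in this order throughout. Ovalbumin (OVA) is the allergen of this model of allergic rhinitis, given by intraperitoneal injection with alum and then into the nose, and ribavirin is an antiviral nucleoside analogue. The number of mice behind a library and the dose and timing of ribavirin are not given in the sources used here. With 1 library a group, no difference between treatments was tested. Intervals are 95% intervals that cover counting error only.

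Classical monocytes are released from the bone marrow into the blood, carry the receptor Ccr2 and enter inflamed tissue, where they can become macrophages or take up functions of dendritic cells. Interferon gamma acts on such cells and induces the chemokines Cxcl9 and Cxcl10, which attract T cells through the receptor Cxcr3, together with guanylate-binding proteins and the genes of antigen presentation. Ly6i encodes a small surface protein of the Ly6 family that is anchored to the membrane by a lipid. Ms4a4c belongs to a family of membrane-spanning proteins found in myeloid cells, and Plac8 encodes a small cysteine-rich protein of monocytes. Cfb is complement factor B of the alternative pathway, Saa3 an acute-phase protein, Ass1 the argininosuccinate synthase that regenerates arginine, and Prdx5 a peroxiredoxin that reduces peroxides.

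The 8 marker genes are protein-coding and lie on 6 chromosomes of GRCm38. Ly6i (ENSMUSG00000022586) spans chr15:74979534-74983430 on the minus strand and Cxcl9 (ENSMUSG00000029417) chr5:92321347-92328079 on the minus strand. Ms4a4c lies at chr19:11404770-11427246 on the plus strand, Plac8 at chr5:100553725-100572245 on the minus strand, Cfb at chr17:34856374-34862518 on the minus strand, Saa3 at chr7:46711998-46715700 on the minus strand, Ass1 at chr2:31470207-31520672 on the plus strand and Prdx5 at chr19:6906697-6910106 on the minus strand. Of the 75-base words in the last 500 bases of its transcripts, from which 3' libraries mostly read, Cfb shared 64.3% with the predicted gene Gm20547 and Ass1 shared 26.2% with Gm5424, so counts of both are uncertain to that extent. Ly6i shared 0.852% of its words with Ly6a, and Cxcl9, Plac8 and Prdx5 shared none.

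Most gated cells carried monocyte transcripts, but the gate also let in cells of another type. Csf1r, the receptor of the growth factor of monocytes and macrophages, was detected in 92.1%, 74.2%, 89.8% and 76.2% of gated cells. Ccr2, the chemokine receptor of classical monocytes, was detected in 91.3%, 68.2%, 82.3% and 61.9% of them, and Lyz2, the lysozyme of myeloid cells, in 96.4%, 75.8%, 97.2% and 81.0%. In contrast, Adgre1, which encodes the macrophage protein F4/80, was detected in 27.3% to 33.8% of the cells. Of the 7 macrophage markers that the gate had not used, 5, 5, 7 and 5 were detected, with Folr2 and Cd163 at 0 UMIs in every library except Ribavirin. The 7 genes, the lipid carrier Apoe among them, summed to 6854, 2822, 5617 and 2368 CPM (UMIs of a gene per 1000000 UMIs of the cells summed), against 3546, 2981, 2898 and 1329 CPM in classical monocytes. The 6 mast cell and basophil markers had a summed level of 0 to 0.321 CPM, and the 5 T cell markers outside the gate of 3.25 to 16.4 CPM.

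A few of the gated cells carried epithelial transcripts. A gated cell with at least 10 UMIs over the epithelial markers Epcam, Krt8, Krt18, Krt5, Cdh1 and Bpifa1 was found 4 times in Vehicle, 3 times in Vehicle-OVA, 17 times in Ribavirin and 3 times in Ribavirin-OVA, and these cells held 2.55%, 21%, 28.7% and 42.0% of the gated UMIs. The summed level of the 6 genes was 352, 3012, 1305 and 37670 CPM in the gated cells. After the values had been seen, a stricter set was therefore formed from gated cells with at least 1 UMI of Csf1r and without those epithelial cells, in which the sum was 28.2, 102, 83.8 and 271 CPM. It held 359 cells in Vehicle, 48 in Vehicle-OVA, 188 in Ribavirin and 16 in Ribavirin-OVA, and is called the Csf1r-positive set below. Neutrophil markers were also unevenly spread. Their 9 genes outside the gate summed to 3781, 9445, 5133 and 2688 CPM in the gated cells and to 3838, 2996, 779 and 717 CPM in the Csf1r-positive set. In Vehicle a single cell held 99.8% of the Camp UMIs and 83.0% of the S100a8 UMIs of that set. Their part in the results below was not tested beyond the values given for both sets.

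The depth of the gated cells was alike in the 4 libraries, with a median of 7511 UMIs in Vehicle, 7013.5 in Vehicle-OVA, 8564 in Ribavirin and 7558 in Ribavirin-OVA. The summed counts behind each level, in contrast, ranged from 3118888 UMIs in Vehicle to 265646 in Ribavirin-OVA, so that the levels of Ribavirin-OVA rest on few cells. Doublet calling marked 7, 2, 1 and 0 of the gated cells. No barcode was gated in more than 1 library.

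Gated cells made up a smaller share of the 2 challenged libraries. They were 391 cells or 1.52% of the cells kept in Vehicle (Clopper-Pearson interval 1.37% to 1.68%), 66 cells or 0.377% in Vehicle-OVA (0.292% to 0.480%), 215 cells or 1.06% in Ribavirin (0.924% to 1.21%) and 21 cells or 0.238% in Ribavirin-OVA (0.147% to 0.364%). The intervals of both challenged libraries lay below those of both unchallenged libraries. On the log2 scale the share of Vehicle-OVA over Vehicle was -2.01 (-2.41 to -1.63) and that of Ribavirin-OVA over Ribavirin -2.15 (-2.88 to -1.51). Among mononuclear phagocytes (gated cells, classical and nonclassical monocytes, and macrophages with C1q transcripts) the shares were 9.70%, 4.14%, 6.94% and 1.57%, and the first of these differences shrank to -1.23. The share rests on the threshold of 2 Ly6i UMIs, and with 1 UMI allowed the difference of Vehicle-OVA was -1.19. These shares describe the selection. Fewer such cells and less Ly6i RNA per cell cannot be told apart from them. In kept cells outside the gate Ly6i stood at 108, 47.9, 54.2 and 18.6 CPM, so it was lower with OVA there too.

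**Figure D1:**
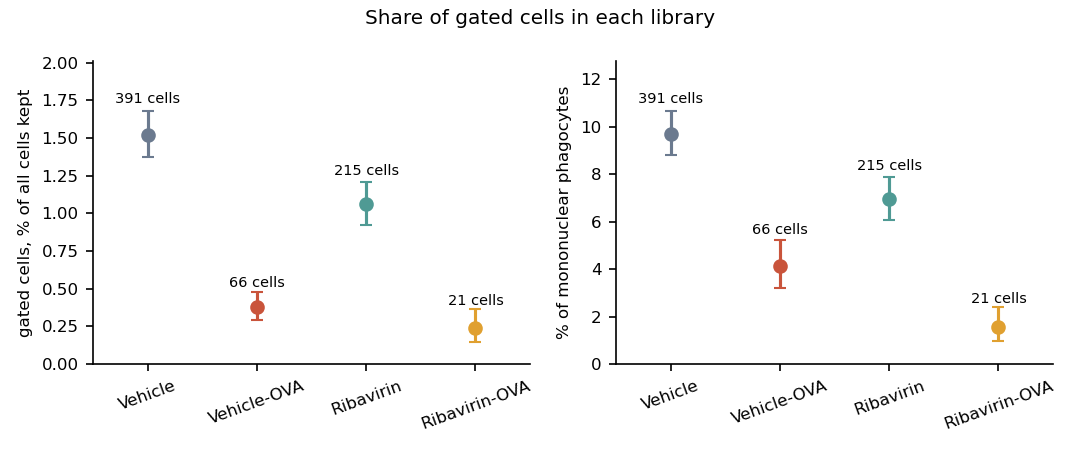
Gated cells as a percent of all cells kept (left) and of mononuclear phagocytes (right), with 1 point per library and bars for the 95% Clopper-Pearson interval of counting error. The points of Vehicle-OVA and Ribavirin-OVA, at 0.377% and 0.238% of the cells kept, sit below those of Vehicle and Ribavirin, at 1.52% and 1.06%.

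Ly6i transcripts were not confined to the gated cells. At least 2 UMIs of Ly6i were found in 2617, 657, 1390 and 294 cells of the libraries, and the gate took 14.9%, 10.0%, 15.5% and 7.14% of them. Macrophages with at least 10 UMIs of C1qa, C1qb and C1qc held 41.2%, 26.6%, 38.9% and 20.7% of these Ly6i-bearing cells. In cells just outside the threshold, with 1 UMI of Ly6i, Cxcl9 stood at 1007, 92.5, 690 and 227 CPM, against 964, 50.2, 674 and 19.5 CPM in cells just inside it with 2 UMIs. For Prdx5 the values were 1854, 877, 1734 and 382 CPM outside and 2083, 1343, 2496 and 371 CPM inside. Cells on the 2 sides of the threshold thus had Cxcl9 levels of similar size in the unchallenged libraries, while Prdx5 was higher inside. In Vehicle and Ribavirin, Cfb stood at 62.6 and 73.7 CPM outside against 68.7 and 119 CPM inside. Saa3 stood at 57.9 and 107 CPM against 92.2 and 216 CPM, and Ass1 at 156 and 156 CPM against 211 and 172 CPM. Cells with 3 or more UMIs, 315 and 158 of the gated cells there, held Cxcl9 at 1055 and 619 CPM and Prdx5 at 3454 and 2577 CPM.

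Next, the marker genes were followed across the libraries in the Csf1r-positive set. Since the markers were given with the cells, their levels are a description without a test. Ly6i, on which the cells were chosen, stood at 986 CPM in Vehicle, 776 in Vehicle-OVA, 818 in Ribavirin and 480 in Ribavirin-OVA. Cxcl9, the Cxcr3 ligand, stood at 958 CPM in Vehicle (Poisson interval 922 to 995), 398 in Vehicle-OVA (340 to 462), 792 in Ribavirin (749 to 836) and 981 in Ribavirin-OVA (826 to 1157). It was detected in only 40.1%, 18.8%, 36.2% and 12.5% of the cells, so the larger number of cells chosen by Ly6i held no Cxcl9 UMI at this depth. The value of Ribavirin-OVA came from 2 of 16 cells. A single gated cell held 7.05%, 55.4%, 16.5% and 73.6% of all Cxcl9 UMIs, so the challenged libraries rest mainly on 1 cell each. After each cell was thinned to 2000 UMIs, Cxcl9 was detected in 28.5%, 15.6%, 25.7% and 13.3% of Csf1r-positive cells, compared with 2.15%, 0.272%, 2.24% and 0.229% of B cells, which should lack it.

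The other markers did not follow Cxcl9. Prdx5 was the most abundant of those outside the gate and was lower in both challenged libraries, at 3361 CPM in Vehicle, 1391 in Vehicle-OVA, 3502 in Ribavirin and 689 in Ribavirin-OVA. The ratio was 0.414 (0.380 to 0.450) under vehicle and 0.197 (0.160 to 0.240) under ribavirin. Saa3 was higher in Vehicle-OVA, at 1100 CPM against 335 in Vehicle, and stood at 624 in Ribavirin and 745 in Ribavirin-OVA, where 98.1% of the UMIs of the gated cells came from 1 cell. Cfb stood at 188, 322, 230 and 111 CPM and Ass1 at 198, 232, 222 and 118 CPM in the same order. For both genes the highest value was that of Vehicle-OVA and the lowest that of Ribavirin-OVA. Of the gate genes among the markers, Ms4a4c stood at 712, 726, 720 and 591 CPM, whereas Plac8 was lower in the challenged libraries, at 4697, 2432, 4210 and 2366 CPM.

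The same genes were present at other levels in related populations. In C1q macrophages Cxcl9 stood at 745, 119, 476 and 114 CPM, in classical monocytes at 169, 16.7, 58.2 and 58.4 CPM, and in nonclassical monocytes at 275, 1.73, 88.7 and 1.97 CPM. In each of the 4 libraries the gated cells (1038, 273, 632 and 542 CPM) stood above all 3 populations. The nonclassical monocytes also carried epithelial markers, which summed to 461, 7770, 9896 and 25516.5 CPM. Neutrophil markers summed there to 2106, 16766, 10601.5 and 20055 CPM, and the part of such RNA in these levels was not tested. For Saa3 the order was another one, and classical monocytes of Vehicle-OVA, at 1844 CPM, stood above the gated cells of that library, at 930 CPM. Cfb was lower in classical monocytes (40.0, 56.0, 17.2 and 11.4 CPM) than in C1q macrophages (123, 143, 108 and 90.8 CPM). In the gated cells Cfb stood at 180, 226, 201 and 90.3 CPM, above both populations in every library except Ribavirin-OVA, where the gated cells and the macrophages lay side by side. Comparisons are made within each gene, since levels were not scaled by transcript length.

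**Figure D2:**
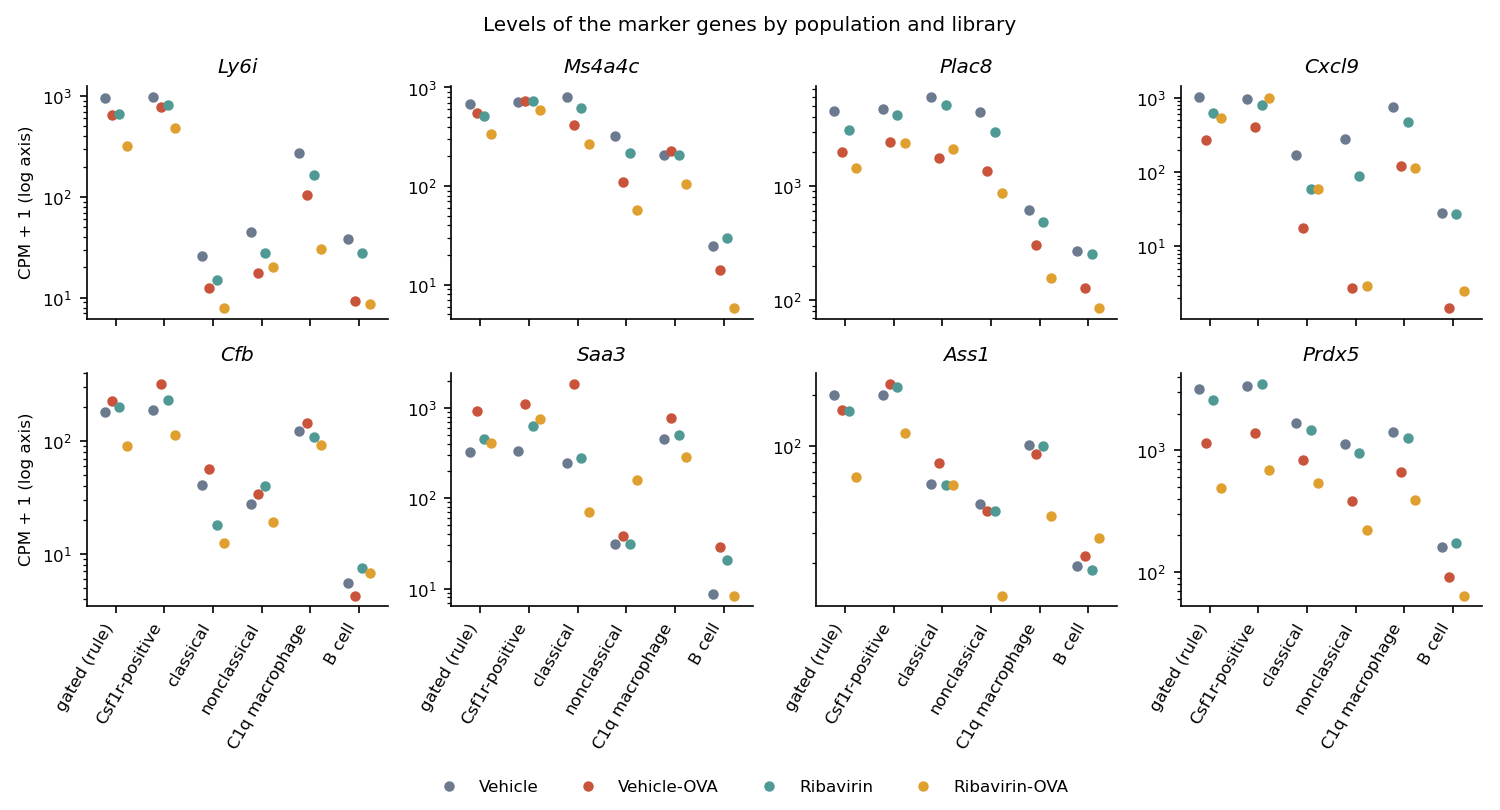
Levels of the 8 marker genes as CPM + 1 on a log axis in 6 populations, with 1 point per library and no error bars, since a point is 1 library. Ly6i, by selection, is highest in the gated cells, Cxcl9 is next highest in C1q macrophages in each library, and Prdx5 is lower in the libraries with OVA in every population shown.

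The cells differed among themselves in which markers they held. Of the 5 markers outside the gate (Cxcl9, Cfb, Saa3, Ass1 and Prdx5), all were detected together in 4.09%, 3.03%, 7.91% and 4.76% of gated cells. None was detected in 1.28%, 4.55%, 0.930% and 4.76% of the cells. In Vehicle 26.9% of cells held 2 of the 5 genes, 30.7% held 3 and 22.8% held 4.

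Cells of the Csf1r-positive set with a Cxcl9 UMI were then set beside cells without one. In Vehicle these were 144 and 215 cells with similar median depths of 7393 and 7652 UMIs. Gbp2, a guanylate-binding protein that acts against microbes inside the cell, stood at 806 CPM in the cells with Cxcl9 and 275 CPM in those without, a ratio of 2.93 (2.62 to 3.28). Its family member Gbp5 had a ratio of 3.67 (2.68 to 5.07), Cxcl10 of 2.13 (1.87 to 2.42) and Cfb of 2.23 (1.87 to 2.67). Igtp, an immunity-related GTPase, had a ratio of 2.43 (1.82 to 3.25). In contrast, H2-Ab1, a chain of MHC class II, had a ratio of 0.928 (0.903 to 0.954) and Saa3 of 0.734 (0.639 to 0.842). In Ribavirin, with 68 and 120 cells, the ratio was 10.1 (8.25 to 12.6) for Cxcl10, 3.40 (2.91 to 3.98) for Gbp2, 3.20 (2.23 to 4.64) for Gbp5 and 2.44 (1.97 to 3.02) for Cfb. In Vehicle-OVA, with 9 and 39 cells and median depths of 12435 and 8322 UMIs, the ratio was 3.01 (2.29 to 3.97) for Gbp2 and 2.60 (1.82 to 3.70) for Cfb, but 0.759 (0.449 to 1.23) for Cxcl10, so that Gbp2 and Cfb kept to the side of Cxcl9 in these 3 libraries and Cxcl10 in the unchallenged ones. Cells of 1 library are not replicates, and a cell with more captured RNA is more often positive for every gene, so these ratios describe the cells and carry no test.

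The promoters of this group of genes are shown because Cxcl9, Cxcl10, Gbp2 and Gbp5 were high in the same cells of the unchallenged libraries. Each sequence holds the 250 bases before the annotated start in RefSeq on GRCm38.p6, read 5′ to 3′ on the gene's own strand. Capitals mark matches to 3 motifs that were searched on both strands: the interferon-gamma activated site (GAS, written TTC, any 3 bases, GAA), the interferon-stimulated response element (ISRE, written GAAA, any 2 bases, GAAA) and a TATA box written TAAATA. The windows are chr5:92328080-92328329 (minus strand) for Cxcl9, chr5:92348890-92349139 (minus strand) for Cxcl10, chr3:142620413-142620662 (plus strand) for Gbp2 and chr3:142496684-142496933 (plus strand) for Gbp5.
Cxcl9: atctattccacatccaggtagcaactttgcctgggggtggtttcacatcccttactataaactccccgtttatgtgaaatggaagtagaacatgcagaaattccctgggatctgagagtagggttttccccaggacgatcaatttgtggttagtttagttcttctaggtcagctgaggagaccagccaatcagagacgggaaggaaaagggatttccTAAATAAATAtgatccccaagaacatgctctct
Cxcl10: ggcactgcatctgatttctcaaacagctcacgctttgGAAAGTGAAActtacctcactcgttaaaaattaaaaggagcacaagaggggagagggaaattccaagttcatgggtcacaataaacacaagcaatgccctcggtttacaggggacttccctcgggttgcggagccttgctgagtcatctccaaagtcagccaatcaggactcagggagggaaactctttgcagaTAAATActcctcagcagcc
Gbp2: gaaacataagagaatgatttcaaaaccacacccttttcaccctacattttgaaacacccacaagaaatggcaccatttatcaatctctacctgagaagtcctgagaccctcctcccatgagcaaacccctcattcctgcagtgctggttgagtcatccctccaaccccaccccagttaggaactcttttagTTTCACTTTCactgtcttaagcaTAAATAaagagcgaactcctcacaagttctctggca
Gbp5: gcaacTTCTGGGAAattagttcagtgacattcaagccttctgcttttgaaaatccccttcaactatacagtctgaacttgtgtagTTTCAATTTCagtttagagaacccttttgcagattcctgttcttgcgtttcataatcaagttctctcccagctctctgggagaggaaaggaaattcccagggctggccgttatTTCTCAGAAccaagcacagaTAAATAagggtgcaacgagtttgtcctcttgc
All 4 windows held the TATA letters, at 2 overlapping places in Cxcl9. An ISRE match lay 213 to 204 bases before the start in Cxcl10, 59 to 50 bases in Gbp2 and 165 to 156 bases in Gbp5, the last 2 of these on the opposite strand. GAS matches lay 245 to 237 and 52 to 44 bases before the start of Gbp5. Over the 250 bases before the start of all 32851 RefSeq promoters, 12.7% held the TATA letters, 2.98% an ISRE match and 7.02% a GAS match. A match describes the letters, and a window without one says only that these letters are not in it. Of the 8 marker genes, 6 were found in the RefSeq promoter table.

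To ask how the gated cells differ from the 2 kinds of blood-type monocytes, UMIs were summed per library and population and compared over the 4 libraries, with the library as a block, by edgeR's quasi-likelihood test with Benjamini-Hochberg adjustment over all genes. Here the library is the replicate of a difference between populations. The genes of the gates were left out of the counts. Classical monocytes (139, 137, 175 and 66 cells) had been taken by at least 3 UMIs of Vcan and F13a1 together, and nonclassical monocytes (203, 96, 263 and 104 cells) by at least 2 of Ace and Adgre4.

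Of 8014 genes tested, 515 (6.43%) were higher and 441 (5.50%) lower in the gated cells than in classical monocytes. Without the Ribavirin library the counts were 175 and 135. The 10 genes of largest rise were led by epithelial genes such as Aldh1a1, an aldehyde dehydrogenase of airway epithelium, and Reg3g, an antimicrobial lectin, which moved with the epithelial cells counted above. Between Csf1r-positive cells of both populations, 326 of 7732 genes (4.22%) were higher and 304 (3.93%) lower. The values below are from this comparison. Slamf9, a receptor of the SLAM family, stood at 55.3, 47.3, 44.7 and 27.8 CPM in the gated cells against 5.96, 8.40, 2.09 and 2.36 CPM in classical monocytes, with no overlap (log2 fold change 3.28 ± 0.32 SE, edgeR adjusted p = 7.70e-05). Axl, a receptor kinase that takes part in the clearance of dead cells, stood at 97.5, 220, 92.5 and 83.5 CPM against 23.9, 41.3, 12.5 and 15.4 CPM (2.47 ± 0.19, edgeR adjusted p = 1.61e-05). The long noncoding transcript AW112010 stood at 1976, 1041, 1284 and 411 CPM against 662, 134, 317 and 49.6 CPM, higher in each library though the ranges overlapped (2.37 ± 0.28, edgeR adjusted p = 0.00376). Cxcl16, a chemokine that also serves as a scavenger receptor, was higher by 2.42 ± 0.39 (edgeR adjusted p = 0.0269), and Spint1, Spon1, H2-Q6 and F11r by 2.16 to 2.39. Of the marker genes, Cfb differed by 2.80 ± 0.24 and Cxcl9 by 3.70 ± 0.49, given without a test.

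Granule protease genes and cell cycle genes were among those lower than in classical monocytes. Of 8 neutrophil markers tested 1 was lower and none higher, with a median log2 fold change of 0.05. Prtn3, a protease of granule precursors, differed by -4.50 ± 0.24 (edgeR adjusted p = 4.02e-07) and Mmp8, a neutrophil collagenase, by -4.22 ± 0.26 (edgeR adjusted p = 2.49e-06). Elane, the neutrophil elastase, was at 0 UMIs in the Csf1r-positive gated cells of all 4 libraries, which allows up to 1.06, 7.10, 1.86 and 20.9 CPM, and stood at 148, 8.40, 92.4 and 174 CPM in classical monocytes. Cd177, a surface protein of neutrophils, differed by -3.04 ± 0.22 (edgeR adjusted p = 7.98e-06), and Racgap1, which acts in cell division, by -3.35 ± 0.44 (edgeR adjusted p = 0.000795). Of 8 cell cycle genes tested, 4 were lower and none higher, with a median log2 fold change of -2.26 against 0.00 over all genes. Among them, Rrm2, a subunit of ribonucleotide reductase, differed by -4.80 and Stmn1 by -2.85. Chil3, a chitinase-like protein, and Fn1, fibronectin, differed by -1.83 and -1.55, both on the list of classical monocyte markers, of which 3 of 6 were lower and none higher. The gates separate these populations by Vcan and F13a1, so a lower level of classical markers is partly set by the selection.

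**Figure D3:**
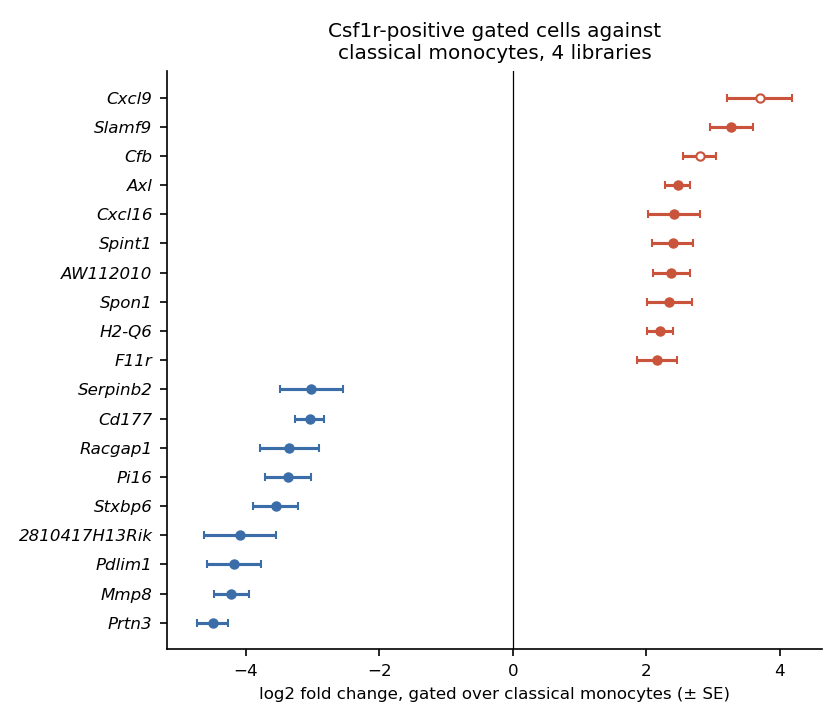
Log2 fold changes (x axis, points with bars of 1 SE, n = 4 libraries) of genes named by a fixed rule of size between Csf1r-positive gated cells and classical monocytes. Slamf9, Axl and AW112010 lie between 2 and 4 on the higher side, Prtn3, Mmp8 and Pdlim1 below -4 on the lower side, and the open points Cxcl9 and Cfb are marker genes shown without a test.

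Antigen presentation set the gated cells apart from classical monocytes. Of 17 genes of MHC class I presentation, 13 were higher and none lower, with a median log2 fold change of 0.77. H2-K1, a classical class I heavy chain, stood at 2231, 2828, 2277 and 2936 CPM against 1351, 1257, 1123 and 1069 CPM, with no overlap (1.14 ± 0.13, edgeR adjusted p = 0.000274). B2m, the light chain shared by these molecules, differed by 0.80, and the peptide transporter subunit Tap1 by 0.71. H2-Q6 and H2-Q7 differed by 2.21 and 1.98, but these near-identical genes share reads and their split is uncertain. Of 11 genes of MHC class II and costimulation, 6 were higher and none lower, with a median of 1.81. H2-DMb1, which helps load peptide on class II, differed by 1.81 ± 0.17 (edgeR adjusted p = 6.82e-05), and Cd86, a ligand that costimulates T cells, by 0.91 ± 0.18 (edgeR adjusted p = 0.00843). The class II chains themselves were higher in each of the 4 libraries but did not pass the threshold in Csf1r-positive cells. H2-Ab1 stood at 7915, 1997, 7770 and 4238 CPM against 1313, 660, 1090 and 195 CPM (2.88 ± 0.58, edgeR adjusted p = 0.0898), and its edgeR adjusted p was 0.0430 with all gated cells. Cd74, the invariant chain, had an edgeR adjusted p of 0.131. Ciita, the transactivator of class II genes, differed by 2.00 ± 0.22 (edgeR adjusted p = 0.000189).

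Interferon genes gave a mixed result. Of 13 genes of interferon gamma signalling, 4 were higher and none lower. Among them, Cd274, which encodes the checkpoint ligand PD-L1, differed by 1.56 ± 0.33 (edgeR adjusted p = 0.0394). Of 12 guanylate-binding and immunity-related GTPases only Gbp7 (0.75) and Gbp8 (1.92) passed, although the median of the list was 1.01. None of 28 type I interferon-stimulated genes passed, with a median of 0.50. Ccl5, the chemokine of T cells, stood at 1764, 324, 2304 and 550 CPM against 351, 37.8, 235 and 5.90 CPM, higher in every library, and did not pass (3.38 ± 0.66, edgeR adjusted p = 0.0839). With all gated cells, 4 interferon gamma signalling genes were higher and 2 lower, and 2 of 30 type I interferon-stimulated genes were higher. Of the cytokines, Il18bp, which neutralises the cytokine Il18, was the 1 of 13 that was higher (1.60) and Il6 the 1 that was lower (-1.39), against 4 higher and 1 lower with all gated cells. Pattern recognition and Fc receptors held 3 of 20 higher, with Fpr2, a receptor for formylated peptides, at 1.36, and 1 lower, whereas with all gated cells 1 was higher and 2 lower. Of 7 complement genes, the anaphylatoxin receptors C3ar1 (0.96) and C5ar1 (0.78) were higher, and 1 was lower. The marker Cfb is on this list too, but it was given with the cells and lends the list no weight.

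Against nonclassical monocytes, which patrol the vessel wall, 658 of 8871 genes (7.42%) were higher in the gated cells and 593 (6.68%) lower. These counts include the epithelial and neutrophil RNA of the nonclassical monocytes given above. Between Csf1r-positive cells of both, 711 of 6826 (10.4%) were higher and 714 (10.5%) lower. Spp1, the secreted matrix protein osteopontin, stood at 54.6, 2385, 109 and 1941 CPM in the gated cells against 3.88, 57.2, 2.96 and 88.9 CPM, higher in each library (4.93 ± 0.21, edgeR adjusted p = 2.78e-10). Mertk, a receptor for dead cells related to Axl, differed by 2.41 ± 0.27 (edgeR adjusted p = 7.92e-06), Dab2, an endocytic adaptor, by 2.88 ± 0.25 (edgeR adjusted p = 1.40e-06) and C3ar1 by 2.87 ± 0.21 (edgeR adjusted p = 7.93e-08). On the lower side were S1pr5, a receptor through which cells leave tissue and marrow, at -5.58 ± 0.39 (edgeR adjusted p = 4.12e-08), the adhesion protein Ceacam1 at -4.61 ± 0.20 (edgeR adjusted p = 2.78e-10), and Cd300e, Fabp4, Slc12a2 and Ear2 at -5.36 to -4.33. Of 8 nonclassical markers outside the gates, 7 were lower and none higher. The gates separate these populations by Ace and Adgre4, so a lower level of nonclassical markers is partly set by the selection.

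Some interferon genes and cytokines were also higher than in nonclassical monocytes, where the median log2 fold change over all genes was 0.02. Of 13 interferon gamma signalling genes 4 were higher and 3 lower. No test compared this difference with that from classical monocytes, and both use the same gated cells. Of 12 guanylate-binding and immunity-related GTPases 8 were higher, with Gbp2 at 487, 513, 466 and 466 CPM against 248, 144, 225 and 139 CPM (1.40 ± 0.16, edgeR adjusted p = 1.10e-05). Of 27 type I interferon-stimulated genes 11 were higher, with Isg15 by 1.89 and Ifit2 by 1.41. Of 12 cytokines 7 were higher, with Il1b, which encodes the pyrogenic cytokine interleukin 1 beta, by 0.91, Il1rn, its receptor antagonist, by 1.71 and Vegfa by 2.26. No GTPase, type I interferon-stimulated gene or cytokine was lower. MHC class I held 14 of 17 higher and class II 5 of 11. Of 17 antioxidant genes 8 were higher, with Sod2 by 1.32 and Txn1 by 1.08, and 2 lower. The count of 8 includes the marker Prdx5, which was given with the cells and lends the list no weight.

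Next, challenged and unchallenged libraries were set side by side. In a pair of libraries a gene was called when its CPM (with a pseudocount of 1 CPM) differed at least 2-fold and the exact interval of the ratio excluded equality, among genes with at least 50 UMIs in the pair. Such a call covers counting error and not the spread between mice. In the gated cells 935 of 6508 genes (14.4%) were higher and 501 (7.70%) lower in Vehicle-OVA than in Vehicle, and 440 of 5790 (7.60%) higher and 388 (6.70%) lower in Ribavirin-OVA than in Ribavirin. In the Csf1r-positive set the shares were 14.8% higher and 7.45% lower under vehicle, and 12.3% higher and 6.03% lower under ribavirin. Centred on the median log2 ratio of all genes, 0.18 in the gated cells, the share of higher among called genes fell from 65.1% to 48.6% for Vehicle-OVA, with 676 higher and 714 lower. The values below are from the Csf1r-positive set.

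Most of the genes that macrophages switch on in response to interleukin 4 were higher in Vehicle-OVA, and Arg1 was higher in both challenged libraries. Arg1, the arginase that consumes arginine, stood at 1.76, 2546, 79.5 and 1092 CPM. It was detected in 1.11%, 64.6%, 11.7% and 62.5% of the cells. The most in 1 cell was 18.6% of the UMIs of Vehicle-OVA but 60.5% of those of Ribavirin-OVA. After thinning, Arg1 was found in 57.8% of cells in Vehicle-OVA and 46.7% in Ribavirin-OVA, compared with 6.81% and 6.86% of B cells. Of 10 genes of the list compared under vehicle, 8 were higher and 1 lower, and of 7 under ribavirin 3 were higher and 1 lower. Fn1 stood at 212, 1500, 465 and 765 CPM and Chil3 at 163, 1233, 209 and 278 CPM, both called under vehicle and not under ribavirin. Mrc1, the mannose receptor, stood at 18.7, 92.3, 40.4 and 216 CPM and was called in both. The chemokine Ccl24, which attracts eosinophils, stood at 1.06, 438, 1.86 and 48.7 CPM. It was detected in 33.3% of cells of Vehicle-OVA, where 1 cell held 60% of its UMIs. Ccl17, which attracts T cells, went the other way and was at 0 UMIs in Vehicle-OVA, at least 8.83-fold lower than the 62.7 CPM of Vehicle, of which 56.7% came from 1 cell.

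Arg1 was also present in other myeloid cells. Among the classical monocytes used for the comparison above it stood at 16.9, 3586, 17.4 and 181 CPM, higher than in the gated cells of Vehicle-OVA and lower in Ribavirin-OVA. After thinning it was found in 77.1% and 78.2% of C1q macrophages of the 2 challenged libraries. Spp1 stood at 2385 CPM in Vehicle-OVA and 1941 CPM in Ribavirin-OVA, but 1 cell gave 52.4% of the former UMIs and nearly all of the latter, and likewise 1 cell gave 97.0% of the Mmp12 UMIs of Ribavirin-OVA. Slpi, an inhibitor of neutrophil proteases, stood at 88.7, 402, 119 and 647 CPM. Nos2, the inducible nitric oxide synthase, stood at 6.34, 140, 17.4 and 160 CPM and was found, after thinning, in 1.13% and 11.1% of cells under vehicle, against 0.0768% and 1.63% of B cells. In Ribavirin-OVA 22 Nos2 UMIs lay in 2 cells and 1 in the other 14.

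**Figure D4:**
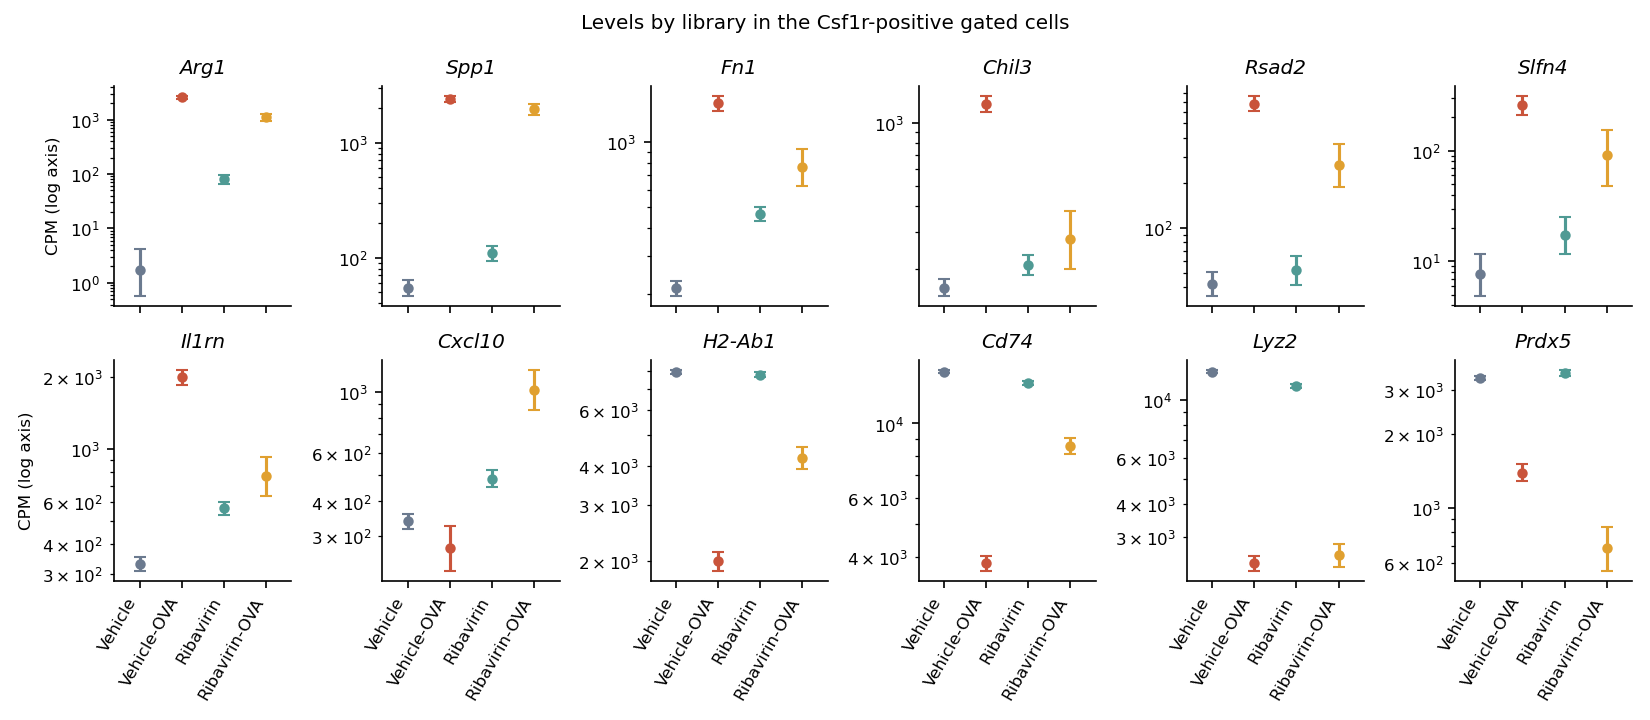
Levels of 12 genes in the Csf1r-positive gated cells of each library, in CPM on log axes that differ between panels, with bars for the 95% Poisson interval of counting error. Arg1 and Spp1 are higher and Lyz2 and Prdx5 lower in both libraries with OVA, while H2-Ab1 and Cd74 are lowest in Vehicle-OVA.

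Most of the type I interferon-stimulated genes compared were higher in Vehicle-OVA, and a minority passed in Ribavirin-OVA. Of 29 type I interferon-stimulated genes compared, 20 were higher and none lower in Vehicle-OVA, with a median log2 ratio of 1.18, against 0.23 over all genes. Under ribavirin 7 of 25 were higher and none lower, with a median of 0.63 against 0.16. Rsad2, which encodes the antiviral enzyme viperin, stood at 42.2, 679, 52.2 and 264 CPM, a ratio of 16.1 (12.9 to 20.1) under vehicle and of 5.07 (3.36 to 7.52) under ribavirin. Slfn4 stood at 7.74, 258, 17.4 and 90.5 CPM and Ifit2 stood at 40.1, 234, 39.7 and 188 CPM. The summed level of the list was 3448 CPM in these cells of Vehicle, against 8078 CPM in Vehicle-OVA. It stood at 2394 and 3243 CPM in C1q macrophages and at 4831 and 4106 CPM in classical monocytes. In nonclassical monocytes it stood at 2362 and 1670 CPM, and in B cells at 1472 and 1101 CPM. In all kept cells outside the gate, these populations among them, it stood at 2120 and 3694 CPM. Neutrophil markers summed to 13007 and 32288 CPM in the cells outside the gate and to 3838 and 2996 CPM in the Csf1r-positive set. The part of neutrophil RNA in the interferon list was not tested. Under ribavirin the summed level of the interferon list went from 3727 to 5713 CPM in the Csf1r-positive set and from 3883 to 1791 CPM in classical monocytes. No test compared the populations.

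Genes that were high in Cxcl9-bearing cells gave another result. None of 12 guanylate-binding and immunity-related GTPases was called under vehicle in the Csf1r-positive set, although 3 of 12 were higher and none lower in all gated cells, with a median of 0.51. In the set, Gbp2 stood at 487 CPM without OVA and at 513 CPM with it, a ratio of 1.05 (0.910 to 1.22). Cxcl9 itself was lower in Vehicle-OVA (ratio 0.415, 0.353 to 0.485), as was Ccl5, with 0.184 (0.154 to 0.218). Under ribavirin 3 of 10 of these GTPases were higher, with Iigp1 at 327 CPM in Ribavirin-OVA from 3 cells, and Cxcl10 stood at 483 CPM without OVA and at 1016 CPM with it, there also from 3 cells. Of 13 genes of interferon gamma signalling, 2 were higher under vehicle, Cd274 and Jak2. Both were also the 2 higher genes of 12 under ribavirin, although Cd274 was not called under ribavirin in all gated cells. Cd274 stood at 103, 310, 127 and 306 CPM and Jak2 at 103, 274, 114 and 473 CPM. In Ribavirin-OVA 26 Cd274 UMIs lay in 2 cells, at 895 CPM, and 18 in the other 14 cells, at 157 CPM. The call of Cd274 under ribavirin thus leans on 2 cells.

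Inflammatory mediators were higher in Vehicle-OVA than in Vehicle. Il1rn stood at 332, 1992, 565 and 772 CPM, Il1a at 71.8, 511, 142 and 90.5 CPM, and Acod1, which makes itaconate, at 165, 819, 181 and 418 CPM. Of 11 cytokines compared under vehicle 5 were higher, and of 20 pattern recognition and Fc receptors 12 were. Under ribavirin none of 8 and 1 of 18 were higher, from fewer cells, and no test compared the 2 challenges. The neutrophil chemokine Cxcl2 stood at 936, 3175, 1417 and 786 CPM and Cxcl3 at 1.76, 880, 14.9 and 348 CPM. Ccl3 stood at 146, 691, 202 and 424 CPM. These are chemokines that neutrophils also make, and neutrophil markers summed to 2996 CPM in Vehicle-OVA against 717 CPM in Ribavirin-OVA in this set. Whether they came with neutrophil RNA was not tested.

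MHC class II genes were lower in Vehicle-OVA. Of 11 class II genes 6 were lower and 1 higher in Vehicle-OVA, and of 10 under ribavirin 1 was lower and 2 higher. In all gated cells 7 were lower and 1 higher under vehicle, and under ribavirin 4 were lower and 1 higher, so that the balance under ribavirin turned with the set. H2-Ab1 stood at 7915 CPM in Vehicle, 1997 in Vehicle-OVA, 7770 in Ribavirin and 4238 in Ribavirin-OVA, a ratio of 0.252 (0.235 to 0.270) under vehicle and 0.545 (0.502 to 0.592) under ribavirin. Of the H2-Ab1 UMIs of Ribavirin-OVA, 267 lay in 2 cells and 342 in the other 14. Cd74 stood at 14270, 3817, 13209 and 8566 CPM and was detected in 93.8% to 99.2% of cells in every library. The summed level of the class II list was 41107, 14303, 38633 and 25378 CPM. It was lower with OVA in classical monocytes too (9220, 6258, 7986 and 2612 CPM) and in C1q macrophages (56804, 19259, 50393 and 21933 CPM). Of 17 class I genes, 1 was higher and 2 lower under vehicle, with H2-K1 at 2231, 2828, 2277 and 2936 CPM.

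Further genes were lower in both challenged libraries. Lyz2 stood at 12781, 2380, 11256 and 2554 CPM and Hp, haptoglobin, at 558, 187, 574 and 69.6 CPM. Of 77 cytosolic ribosomal protein genes 61 were lower in Vehicle-OVA and 36 in Ribavirin-OVA, and none was higher. Their share of all UMIs was 18.6%, 7.17%, 16.8% and 9.13% in the Csf1r-positive set, 19.9%, 10.1%, 19.3% and 13.2% in classical monocytes and 23.8%, 16.5%, 22.9% and 15.8% in B cells. The lower share was thus present in each of these populations. Across genes of the gated cells, which are not independent replicates, the log2 ratio also moved with transcript length. In Vehicle-OVA over Vehicle Spearman's rho was 0.29 over 6501 genes, with a median of -0.31 in the 10% of genes with the shortest transcripts and 0.50 in the 10% with the longest, and in Ribavirin-OVA over Ribavirin it was 0.22 over 5785 genes, with medians of -0.34 and 0.28. Prdx5 and Plac8, both called lower with OVA in all gated cells, Plac8 not in the Csf1r-positive set, have median transcript lengths of 755 and 741 bases. The part of length and of the ribosomal share in the levels of other genes was not tested.

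**Figure D5:**
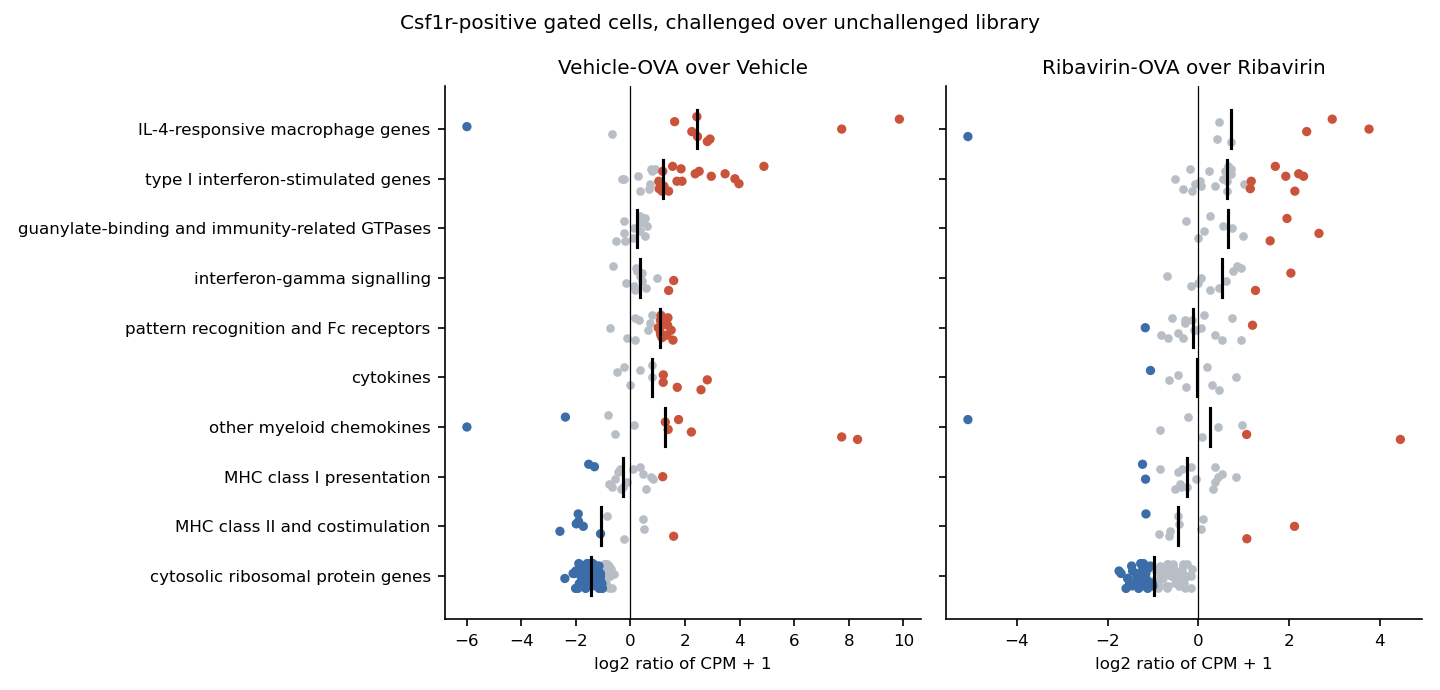
Log2 ratios of CPM + 1 (x axis) of the genes of 10 lists in the Csf1r-positive gated cells, for Vehicle-OVA over Vehicle (left) and Ribavirin-OVA over Ribavirin (right). Each point is a gene, coloured where called higher (red) or lower (blue), and the black bar is the median of the list. The median of the IL-4-responsive genes is 2.44 on the left and 0.72 on the right, and that of the ribosomal protein genes -1.45 and -0.97.

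Finally, ribavirin and vehicle were compared without and with OVA. Without OVA the gated cells held 487 of 7581 genes (6.42%) higher and 40 (0.528%) lower in Ribavirin than in Vehicle, but without the epithelial cells, which held 28.7% of the UMIs of Ribavirin, 39 genes were higher. In the Csf1r-positive set 37 of 6723 genes (0.550%) were higher and 40 (0.595%) lower. Those of largest ratio were Mup5, a lipocalin of the major urinary protein family, at 7.74 CPM without and 261 CPM with ribavirin, Gm14743 and 5430402E10Rik, and Arg1, at 1.76 and 79.5 CPM. The most in 1 cell of Ribavirin was 46.2% of the Mup5 UMIs, 21.6% for Gm14743, 30.4% for 5430402E10Rik and 23.4% for Arg1. How much of the Mup5 level was background was not tested. On the lower side Camp, Ngp, Wfdc21, S100a8 and Lcn2, which granulocytes are known to express, had 82.0% to 99.8% of their Vehicle UMIs in 1 cell each, with S100a8 at 1257 CPM without and 241 CPM with ribavirin. Of the lists, the IL-4-responsive genes held 3 of 9 higher and none lower, with Fn1 at 212 and 465 CPM and a ratio of 2.19 (1.97 to 2.44), while MHC class I, MHC class II, the guanylate-binding and immunity-related GTPases and the pattern recognition receptors held no called gene. Cxcl9 stood at 958 and 792 CPM and Cfb at 188 and 230 CPM, neither of them called.

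With OVA, 92 of 2916 genes (3.16%) were higher and 308 (10.6%) lower in the gated cells of Ribavirin-OVA than of Vehicle-OVA. Centred on the median log2 ratio of -0.14, the counts were 133 higher and 231 lower, so that the share of higher calls went from 23% to 36.5%. In the Csf1r-positive set 68 of 1988 (3.42%) were higher and 116 (5.84%) lower. In this set MHC class II held 4 of 8 genes higher and none lower, while in all gated cells none of 8 was called. H2-Ab1 stood at 1997 and 4238 CPM in the set, a ratio of 2.12 (1.91 to 2.36). In Ribavirin-OVA H2-Ab1 stood at 9195 CPM in 2 cells and at 2982 CPM in the other 14, so this ratio rests in part on 2 cells. In contrast, 5 of 25 type I interferon-stimulated genes, 3 of 6 cytokines and 5 of 16 pattern recognition and Fc receptors were lower and none higher, against 14 of 26, 5 of 8 and 9 of 16 in all gated cells. Il1a stood at 511 and 90.5 CPM (ratio 0.177, 0.0927 to 0.309), Il1b at 6045 and 2456 CPM (0.406, 0.362 to 0.454), and Tlr2, a receptor for bacterial lipoproteins, at 644 and 202 CPM (0.314, 0.206 to 0.461). S100a9, an alarmin of neutrophils, stood at 1389 and 160 CPM. After thinning it was found in 62.2% and 13.3% of cells, below the 74.9% and 33.9% of B cells. How much of it was background was not tested. The higher genes Timd4, Mmp12 and Cxcl10 came from 2, 4 and 3 cells of Ribavirin-OVA. These 48 and 16 cells are all that the 2 challenged libraries hold in this set, and a value of Ribavirin-OVA can turn on a single cell.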

How the data were processed

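The authors digested the nasal mucosa, isolated CD45+ cells (magnetically per the labels) and made 1 droplet library (10x Genomics) for each treatment. Per the submitters' processing notes the reads were processed with Cell Ranger 5.0.0 on mm10, and the values deposited by the authors are raw UMI counts for 27998 genes, of which 121 share their symbol with another. Totals were 91742940 to 171873110 UMIs a library, from 10311 to 28277 barcodes.

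Cells were kept with at least 500 UMIs, at least 200 genes and under 10% mitochondrial UMIs. Doublets were marked by simulated neighbours (2000 variable genes, 31 components, an expected 0.4% per 1000 cells) and left in, with an alternative without them. Counts were summed per library and population. Levels are CPM with exact Poisson intervals, shares have Clopper-Pearson intervals, and ratios of libraries have exact conditional intervals, all at 95%, and a count of 0 allows up to 3 counts. UMIs of 1 library are counting error only.

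Populations were compared with edgeR 4.0.16 (R 4.3.3, limma 3.58.1) by the quasi-likelihood test with trimmed-mean scaling, the low-count filter and the library as a block, at an adjusted p of 0.05. Scripts used Python 3.11.15 with numpy 2.4.6, scipy 1.17.1 and pandas 2.3.3, and both steps were tested on simulated data. The genes named were, by a rule, the 10 of largest change each way against classical monocytes and the 6 against nonclassical monocytes (adjusted p under 0.05, the same direction in every library, at least 200 UMIs), the 5 of largest change each way in a pair of libraries (at least 100 UMIs), members of the gene lists and the markers. The text names some of these, and a few list members are not reported here. The cells, markers and lists were chosen with earlier results of these data known, and the alternatives without epithelial cells or with Csf1r-positive cells after the values were seen. Other alternatives were DESeq2 1.42.0, other size factors, no filter, no block, other thresholds of Ly6i, mitochondrial share, UMIs and pseudocount, cells thinned to 2000 UMIs, and leaving out each library. RefSeq promoters are on GRCm38.p6.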

Additional observations from a re-analysis of the deposited data

Results flagged for a closer look

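Of 5494 genes compared in both challenges in the gated cells, 21 were called higher in Vehicle-OVA over Vehicle and lower in Ribavirin-OVA over Ribavirin, and 5 the other way round. In the Csf1r-positive set these were 2 and 5 genes of 4309. Given here by their log2 ratio (CPM with a pseudocount of 1) in the gated cells are the 8 of them that belong to the gene lists or were named by the rule. The difference between the 2 challenges was not tested, since each rests on 1 library a side, and none of the 8 genes was called in opposite directions in the Csf1r-positive set. The neutrophil genes Lcn2 (2.57, then -2.83) and S100a9 (1.10, then -1.29) and the chemokine Cxcl1 (1.68, then -2.30) were higher under vehicle and lower under ribavirin. The same order held for Ly6d (3.21, then -1.34), the ubiquitin-like Ubd (5.47, then -4.67), the heat shock gene Hspa1a (1.34, then -4.73) and the lipopolysaccharide coreceptor Cd14 (1.00, then -1.14). In contrast, H2-DMb2, which takes part in peptide loading, was lower under vehicle (-1.45) and higher under ribavirin (1.43).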

How the results depend on the processing

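Of 148 values recomputed for the main counts and shares, 108 stayed within 1.5 times or the counting interval and 40 did not. Against classical monocytes the 515 higher and 441 lower genes became 1465 and 768 without the low-count filter, 127 and 138 without the library block, 223 and 145 in thinned cells, 310 higher with at least 3 Ly6i UMIs and 326 higher in Csf1r-positive cells. Leaving out 1 library gave 175 to 643 higher and 135 to 465 lower, the lowest without Ribavirin. Against nonclassical monocytes the 658 higher and 593 lower genes became 164 and 246 without the block, 374 and 359 in thinned cells and 1097 lower without the filter, and 441 to 506 and 468 to 581 when 1 library was left out. DESeq2 called 458 and 316 genes against classical and 570 and 546 against nonclassical monocytes.

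With at least 200 UMIs per gene the called genes became 319 higher and 286 lower for Vehicle-OVA over Vehicle, 88 and 214 for Ribavirin-OVA over Ribavirin, 155 and 8 for Ribavirin over Vehicle, and 18 and 100 for Ribavirin-OVA over Vehicle-OVA. Thinning gave 420 higher, then 117 and 186, 50 and 18, and 16 and 77 in that order. With at least 3 Ly6i UMIs there were 684 higher in Ribavirin-OVA over Ribavirin and 177 lower in Ribavirin-OVA over Vehicle-OVA. Without epithelial cells 39 were higher in Ribavirin over Vehicle and 177 lower in Ribavirin-OVA over Vehicle-OVA, and in Csf1r-positive cells 37 and 116. A pseudocount of 5 CPM left 19 lower in Ribavirin over Vehicle, and under 5% mitochondrial UMIs gave 147 higher in Ribavirin-OVA over Vehicle-OVA. The log2 share of Vehicle-OVA over Vehicle went from -2.01 to -1.19 with 1 Ly6i UMI allowed and to -1.23 among mononuclear phagocytes.

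The direction turned in a few genes. For Vehicle-OVA over Vehicle, Iigp1 went to -0.013 thinned, -0.66 under 5% mitochondrial UMIs, -0.58 without epithelial cells and -0.54 in Csf1r-positive cells, where S100a9 went to -0.15. For Ribavirin-OVA over Ribavirin, S100a9 went to 0.0325 thinned and 0.0048 as a mean of single cells. For Ribavirin over Vehicle, Bpifa1 went to 1.66 with at least 3 Ly6i UMIs, 1.96 without epithelial cells and 2.11 in Csf1r-positive cells, and Lcn2 to -2.16 and -2.23 in the latter 2 sets. For Ribavirin-OVA over Vehicle-OVA, with at least 3 Ly6i UMIs, Chil4 went to -1.29 and Spp1 to 0.70, and Spp1 to 0.26 as a mean of single cells. The cause was not tested.

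The limits are 1 library a treatment, 66 and 21 gated cells in the challenged libraries and genes carried by 1 cell. No paired analysis was possible because each treatment has 1 library, which concerns differences between treatments only. The comparisons of populations were paired by library through the block.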

Other observations

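Several gene groups have not yet been described. Against classical monocytes, in Csf1r-positive cells, the chemokines Ccl6 (-1.12) and Ccl9 (-1.29) were lower. Of 20 cytokine and chemokine receptors 4 were higher and 2 lower, whereas with all gated cells none was higher and 4 were lower. Among them Cxcr4, the receptor that holds cells in the marrow, was higher (0.59), and the interleukin 6 receptor Il6ra (-0.59) and the interleukin 17 receptor Il17ra (-0.66) were lower by edgeR's quasi-likelihood test. Apoe, which carries lipids and is abundant in macrophages, was higher (1.30). Against nonclassical monocytes the fatty acid transporter Cd36 was lower (-4.10), and the scavenger receptor Stab1 (1.89) and the arginine transporter Slc7a2 (2.44) were higher.

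Among cells of the Csf1r-positive set with a Cxcl9 UMI, Nos2 had 15 UMIs against 3 in cells without one in Vehicle and 24 against 4 in Ribavirin, ratios of 7.54 and 9.59. In Vehicle-OVA it had 12 UMIs against 47, a ratio of 0.867 (0.419 to 1.66), so Nos2 did not keep to the side of Cxcl9 there. In Ribavirin-OVA it had 22 UMIs in 2 cells with Cxcl9 and 1 UMI in the 14 without.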
